A study of Mus musculus with 4 samples.

Results

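Timeless and 9 partner genes of the replication fork were described by where TIMELESS ChIP-seq peaks of mouse hippocampus lay around them. The genes were Timeless, Tipin, Clspn, Wdhd1, Rfc1, Stag1, Smc3, Parp1, Atr and Chek1, which were chosen by name from the fork protection complex, the replisome, cohesin and the damage response. The choice was made with earlier results of these data known. The genes are 10 of the 21883 protein-coding genes of the RefSeq gene table on chromosomes 1 to 19, X and Y. For each gene, the peaks in its body and 50 kb on either side, called its window here, were read from 4 peak lists. Every library was made from hippocampus, a tissue of many cell types, of adult C57BL/6N mice. The data were 3 libraries immunoprecipitated with an antibody against TIMELESS, called replicates 1, 2 and 3, and 1 input library of chromatin that was not immunoprecipitated. Whether each library came from an animal of its own is not given in the labels, and differences among replicates may be technical. Peak lists hold no expression values, so the labelled tissue could not be checked against marker genes.

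TIMELESS and its partner TIPIN form the fork protection complex, which travels with the replicative helicase and keeps unwinding and DNA synthesis coupled. Claspin, the product of Clspn, joins them and passes the signal of the kinase ATR to the kinase CHK1 when a fork stalls. WDHD1 links the helicase to DNA polymerase alpha, RFC1 loads the sliding clamp, and cohesin holds sister chromatids together behind the fork. TIMELESS is also counted among the clock proteins in mammals. Most neurons of the adult hippocampus no longer divide.

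Per the file headers, the peak caller kept 8425679, 13572739 and 30454118 tags in replicates 1, 2 and 3 and 14669253 in the input. On the chromosomes used, it called 7454, 24659 and 89043 TIMELESS peaks and 306 input peaks. A deeper library lets weaker sites pass, so peak numbers follow depth as well as enrichment. In the file header of replicate 3 the library goes by the name of a second input, against its label, so leading counts, and shared sites that rest on it, are also given without it. Fold enrichment, the pileup at a summit over the background that the caller set for that library, is the authors' own value for each peak. A site is a stretch of overlapping TIMELESS peaks, and a shared site held peaks of at least 2 TIMELESS libraries and met no input peak. A library with no peak at a site is one in which the site did not pass the caller's q value cutoff of 0.05.

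No TIMELESS library had a peak at the start of any of these genes for which a start was given. RefSeq promoter windows (GRCm38.p6, the build of the files), of 250 bases before to 50 after a gene's start, were found for 9 of the 10 genes, all but Tipin. None of these 9 windows held a TIMELESS peak, and none had a peak within 5 kb of the start. Among 17491 coding genes with such a window, 0.457% had a TIMELESS peak over it and 14.9% had one within 5 kb of it, so the counts of 0 are near that background. The windows of 5 genes are printed in lower case, that of Timeless because its product was immunoprecipitated, and 4 because they were those with a match to either motif searched. Capitals mark the matches. The motifs, searched on both strands, were the E-box CACGTG, known as the site of the clock factors CLOCK and BMAL1, and the E2F words TTTCCCGC, TTTGGCGC, TTTCGCGC and TTTGCCGC, known from promoters of S phase genes. No 2 matches overlapped. The Timeless window lies at chr10:128237816-128238115 on the plus strand, the Clspn window at chr4:126556730-126557029 (plus), the Rfc1 window at chr5:65335590-65335889 (minus), the Stag1 window at chr9:100643198-100643497 (plus) and the Parp1 window at chr1:180568641-180568940 (plus).
Timeless: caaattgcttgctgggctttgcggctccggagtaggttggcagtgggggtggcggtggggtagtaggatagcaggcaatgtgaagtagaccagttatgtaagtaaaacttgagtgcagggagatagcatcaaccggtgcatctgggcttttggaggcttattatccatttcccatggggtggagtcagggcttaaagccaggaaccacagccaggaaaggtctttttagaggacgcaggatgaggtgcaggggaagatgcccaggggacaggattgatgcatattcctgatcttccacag
Clspn: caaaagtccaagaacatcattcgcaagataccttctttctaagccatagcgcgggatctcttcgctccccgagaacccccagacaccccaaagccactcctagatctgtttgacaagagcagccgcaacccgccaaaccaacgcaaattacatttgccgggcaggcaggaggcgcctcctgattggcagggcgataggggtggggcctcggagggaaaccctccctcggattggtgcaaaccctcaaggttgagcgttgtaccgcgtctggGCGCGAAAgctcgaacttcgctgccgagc
Rfc1: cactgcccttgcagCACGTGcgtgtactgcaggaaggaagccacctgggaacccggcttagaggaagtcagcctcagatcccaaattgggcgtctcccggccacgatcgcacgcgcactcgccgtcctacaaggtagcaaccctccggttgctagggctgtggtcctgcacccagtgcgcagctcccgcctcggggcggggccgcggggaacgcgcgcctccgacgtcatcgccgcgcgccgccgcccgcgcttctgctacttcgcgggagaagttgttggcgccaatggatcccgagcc
Stag1: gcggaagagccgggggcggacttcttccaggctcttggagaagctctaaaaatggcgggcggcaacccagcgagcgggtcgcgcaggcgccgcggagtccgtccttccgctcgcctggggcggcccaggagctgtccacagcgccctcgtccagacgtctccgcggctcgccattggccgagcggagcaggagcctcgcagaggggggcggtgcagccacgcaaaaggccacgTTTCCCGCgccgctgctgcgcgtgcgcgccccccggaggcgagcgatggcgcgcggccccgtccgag
Parp1: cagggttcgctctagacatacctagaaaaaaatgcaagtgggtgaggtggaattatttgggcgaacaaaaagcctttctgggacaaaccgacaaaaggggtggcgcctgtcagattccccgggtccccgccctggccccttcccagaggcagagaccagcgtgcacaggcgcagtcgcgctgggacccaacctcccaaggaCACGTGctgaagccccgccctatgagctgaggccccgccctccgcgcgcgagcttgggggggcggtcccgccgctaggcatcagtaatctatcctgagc

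Rfc1 and Parp1 each held 1 E-box, a motif found in 7.90% of all coding promoter windows of the table. Clspn and Stag1 each held 1 E2F word, found in 2.92% of them. The Timeless window held neither motif. The printed windows of Timeless, Rfc1 and Stag1 lie inside the annotated gene bodies, because the table gives 1 start per gene and the body spans all transcripts. The peak nearest to a start belonged to replicate 2 for Atr, at 6.72 kb, and for Parp1, at 7.75 kb, and neither was met by another library. For Timeless the nearest peak was 48.7 kb from the start. The others had theirs at 17.5 to 31.9 kb.

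All 3 TIMELESS libraries had peaks around the 10 genes, and no input peak lay there. Replicate 1 had 4 peaks in the windows, replicate 2 had 18 and replicate 3 had 33, which is 18.3 ± 14.5 peaks on average (SD, n = 3). The input had 0. Among the TIMELESS libraries, the deeper the library, the more peaks it had in the windows. At least 1 peak of replicate 1 lay in the windows of 4 of the 10 genes, of replicate 2 in 9 and of replicate 3 in 8, against 25.1%, 54.6% and 75.9% of all coding genes. A peak of any TIMELESS library lay in the bodies of 6 of the 10, against 28.2% of all coding genes. Without replicate 3 it was 4 of the 10, against 15.9%. Per Mb of window, replicates 1, 2 and 3 had 2.29, 10.3 and 18.9 peaks, against 2.49, 7.97 and 26.4 over the merged windows of all coding genes. Replicate 3 was thus below, and replicate 2 above, the density around coding genes at large. Replicate 1, with only 4 peaks, was near it. These differences were not tested. The nearest input peak lay 293 kb from Smc3 and between 1140 and 16900 kb from each of the other genes. In all coding genes, 1.19% had an input peak in the window. The input was not replicated, and 3 libraries against 1 cannot give an exact permutation p below 0.25.

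**Figure D1:**
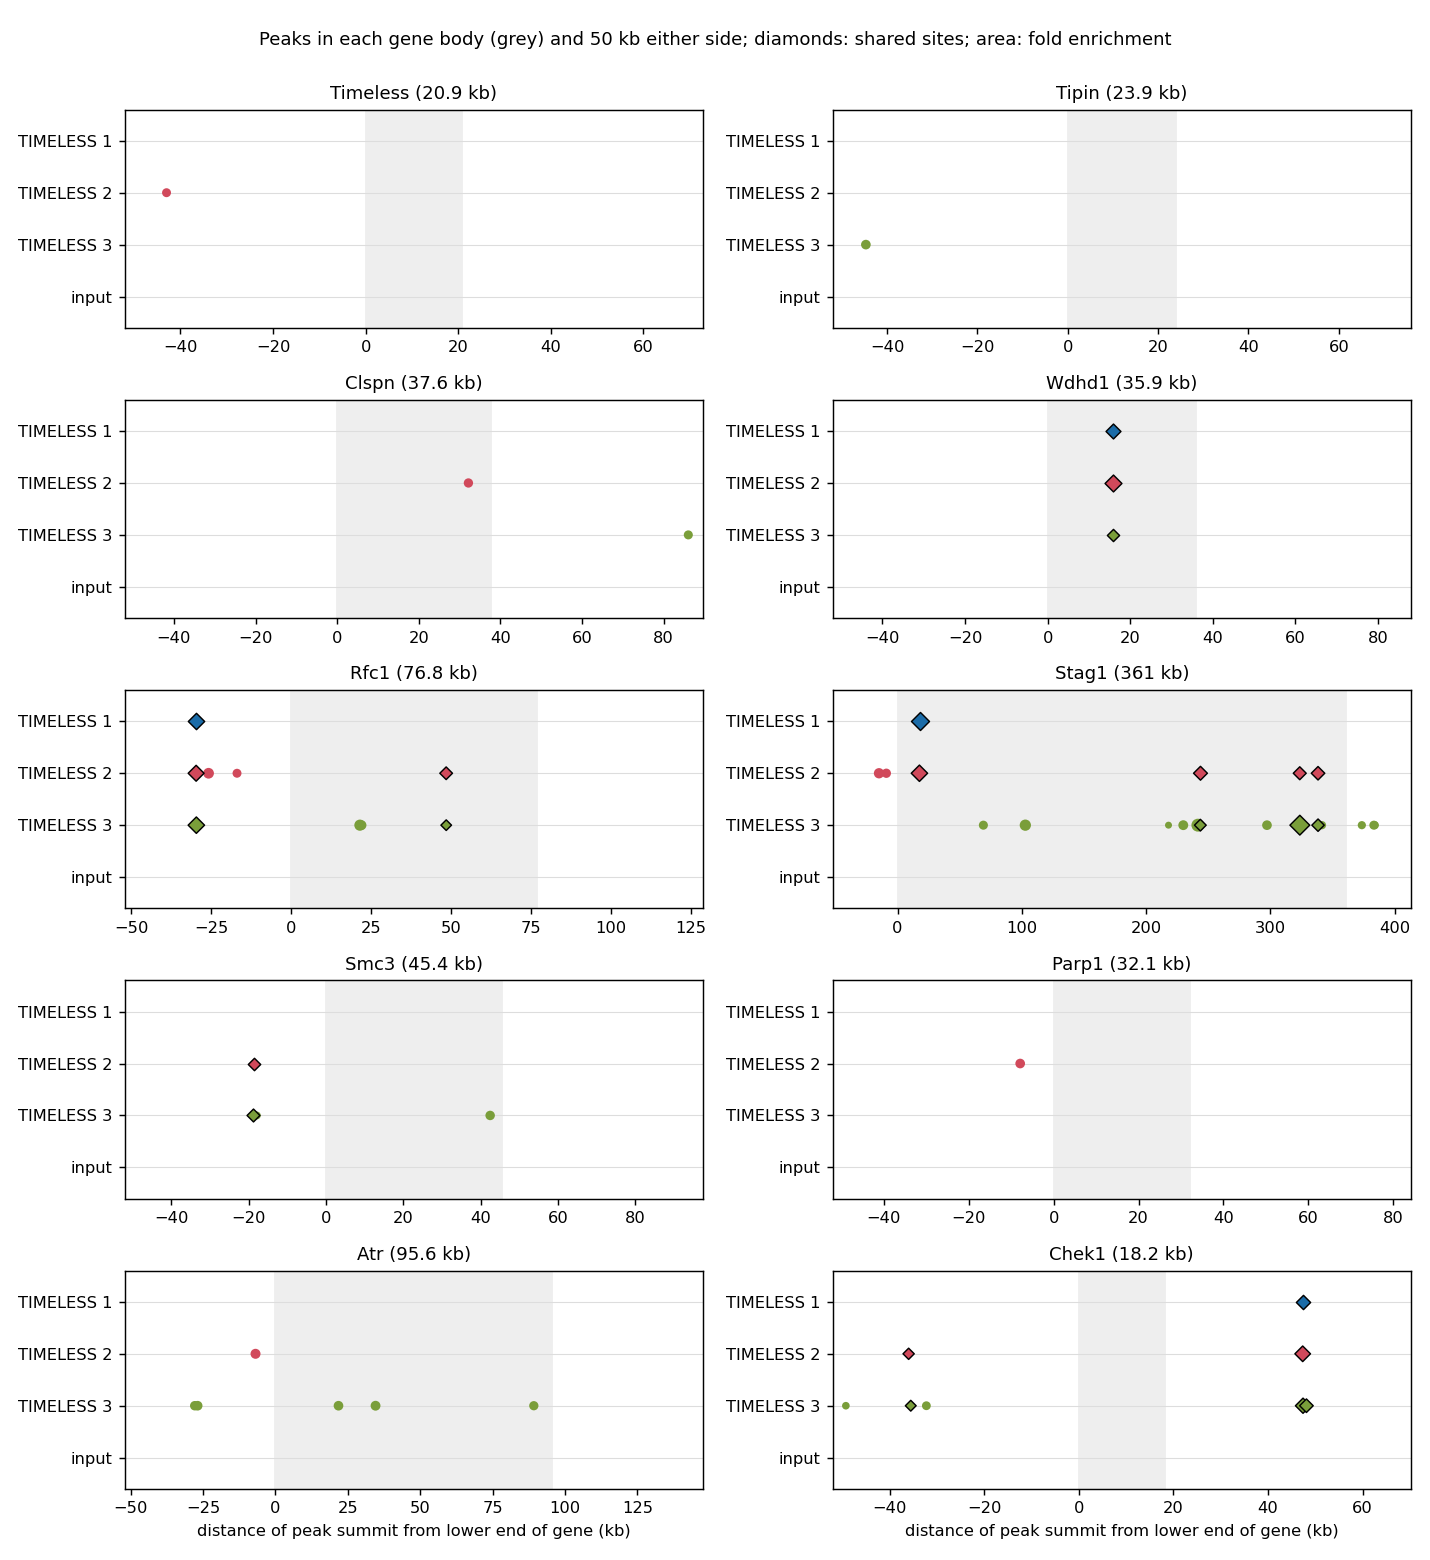
Peaks of the 3 TIMELESS libraries and the input (rows) by distance of the summit from the lower end of each gene in kb, with the gene body in grey. Marker area grows with fold enrichment, and black-edged diamonds are peaks of shared sites. Wdhd1 has a single site in which all 3 libraries meet, Stag1 has 16 sites and Timeless and Tipin have 1 peak each, while the input rows are empty.

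The peaks formed 41 sites, of which 10 were shared, 3 of them by all 3 libraries, and 31 belonged to 1 library. Every peak of replicate 1, 4 of 4, met a peak of replicate 2. In replicate 2, 10 of 18 peaks, or 55.6%, lay in shared sites, and in replicate 3 10 of 33 did, or 30.3%. Over the whole peak lists the shares in sites of at least 2 libraries were 76.4%, 46.6% and 12.4% in replicates 1, 2 and 3.

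Shared sites were found in the windows of 5 of the 10 genes, Wdhd1, Rfc1, Stag1, Smc3 and Chek1, or 50%. Among all coding genes 33.3% had a shared site in the window. A site of all 3 libraries lay in the windows of Wdhd1, Rfc1 and Chek1, or 30%, against 13.2% of all coding genes. In the gene body itself, 3 genes held a shared site, Wdhd1, Rfc1 and Stag1, or 30%, against 8.82% of all coding genes. With 10 genes, each gene moves these shares by 10 percentage points, and the differences were not tested. The genes were longer than most, with a median body of 36.7 kb against 17.2 kb over all coding genes. In the length class of Stag1, 200 kb or more, 65.7% of coding genes had a shared site in the body. That share was 16.3% in the class of Rfc1, 50 to 100 kb, and 7.18% in that of Wdhd1, 25 to 50 kb. Without replicate 3, 4 of the 10 genes kept a shared site in the window, against 17.5% of all coding genes, and without replicate 2 it was 3, against 15.5%. In the gene body, 2 of the 3 genes were left without replicate 3 and 1 without replicate 2. The shares of all coding genes in the body given above used all 3 libraries. They are not given without a replicate, so these last counts have no share beside them.

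Timeless, the gene of the protein that was immunoprecipitated, had a single peak in its window, as did Tipin and Parp1. Timeless spans 20.9 kb of chromosome 10 (128232063 to 128252941). The peak was of replicate 2, at 128188978 to 128189373, with a pileup of 11 and a fold of 4.10. That peak lay 42.7 kb below the gene, on its upstream side, and 65.0% of the peaks of replicate 2 had at least that fold. Neither replicate 1 nor replicate 3 had a peak in the window. The nearest shared site to Timeless lay 197 kb away at 128033854 to 128034576, with folds of 5.24 in replicate 1 and 3.44 in replicate 3. Without replicate 3 it was not shared. That site was 3.82 kb from Prim1, a primase subunit gene on the same chromosome, which was named after its value was seen. The nearest site of all 3 libraries was 767 kb away, with a mean fold of 4.33 ± 1.00 (SD, n = 3).

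Tipin, which encodes the partner of TIMELESS, spans 23.9 kb of chromosome 9 (64281491 to 64305422). Its window held 1 peak, of replicate 3, at 64236652 to 64236974, with a fold of 4.78. The nearest shared site lay 438 kb away, the farthest of the 10 genes, and held peaks of replicate 1 with a fold of 4.94, of replicate 2 with 6.84 and of replicate 3 with 3.25. Clspn, which encodes claspin, spans 37.6 kb of chromosome 4 (126556957 to 126594533). Replicate 2 had a peak in its body at 126588905 to 126589352, with a fold of 4.45, and replicate 3 had one at 126642798 to 126643115, with a fold of 4.20. The peaks did not meet, and Clspn lay 142 kb from its nearest shared site, where folds were 5.68, 4.60 and 3.06. None of the 3 genes of the fork protection complex therefore had a shared site in the window. Of coding genes with a body under 25 kb 28.1% had one, and of those of 25 to 50 kb 31.3%. Most genes of these lengths thus had none, and the lack in these 3 is near that background.

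Wdhd1, which encodes the replisome factor also called AND-1, was the member with a site of all 3 libraries inside the gene. It spans 35.9 kb of the minus strand of chromosome 14 (47240944 to 47276861), and the site lay at 47256493 to 47257239, 19.6 kb from the gene's start. Its folds were 5.68 in replicate 1, 7.27 in replicate 2 and 3.82 in replicate 3, a mean of 5.59 ± 1.73 (SD, n = 3). Replicate 2 was the highest and replicate 3, the deepest library, the lowest. At that fold or above were 28.5%, 3.6% and 46.4% of the peaks of replicates 1, 2 and 3. The summits spanned 177 bp, against a median of 121 bp over all sites with peaks of all 3 libraries. By the smallest of its folds the site ranked 1873 of 3476. No other TIMELESS peak lay in the Wdhd1 window, so all the peaks there met in 1 place. In the body, 3.77% of all coding genes had a site of all 3 libraries.

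Rfc1, the large subunit of the clamp loader, had 6 sites in its window, of which 2 were shared. It spans 76.8 kb of the minus strand of chromosome 5 (65261852 to 65338617). The stronger shared site, at 65231881 to 65232540, was 29.3 kb downstream of Rfc1 and inside the neighbouring gene Wdr19, which encodes a ciliary transport protein. There the fold was 6.83 in replicate 1, 6.46 in replicate 2 and 6.88 in replicate 3, on average 6.72 ± 0.232 (SD, n = 3). The 3 libraries were nearly level there, the summits lay within 65 bp, and the site ranked 391 of 3476. The shared site in the body, at 65310157 to 65310519, was weaker, with folds of 4.10 in replicate 2 and 2.87 in replicate 3 and no peak in replicate 1. Its pileups were 11 and 14, the −log10 q values were 3.12 and 2.46, and 84.4% of the peaks of replicate 3 had at least that fold. Without replicate 3 the site in the Rfc1 body was not shared. A stronger peak of replicate 3 in the body, at 65282872 to 65283461 with a fold of 6.40, was met by no other library. At −log10 q of at least 5 the site in the Rfc1 body was lost and the Wdr19 site was kept.

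**Figure D2:**
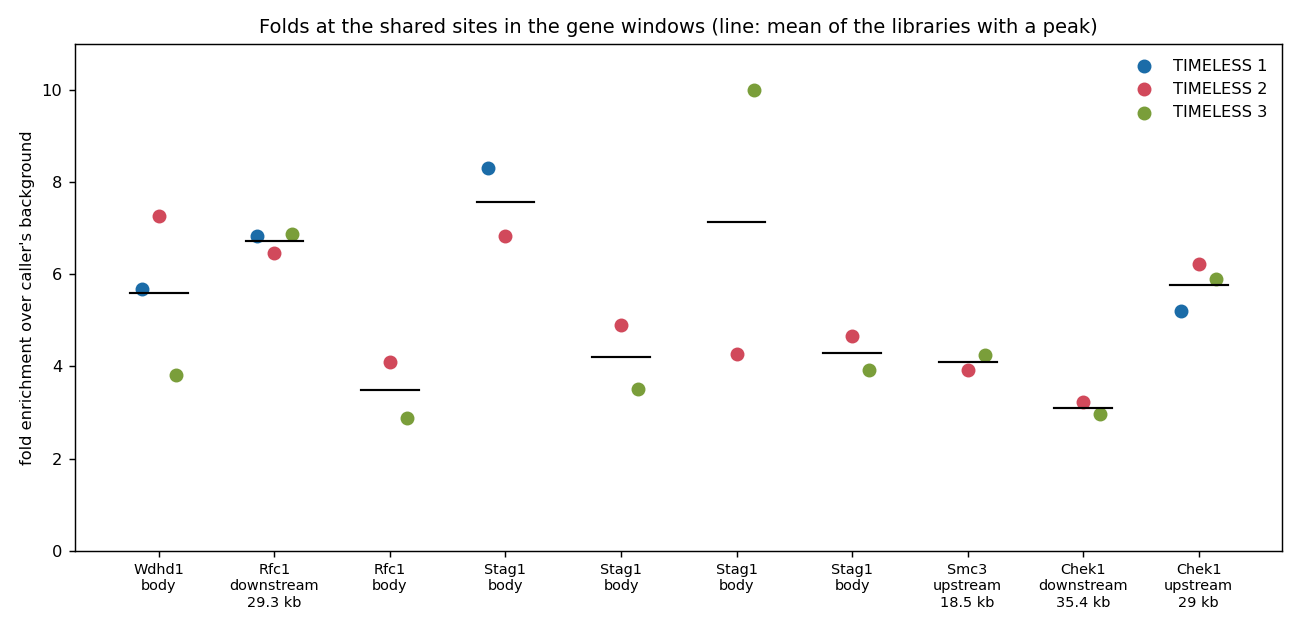
Fold enrichment of each TIMELESS library (points) at the 10 shared sites in the gene windows, ordered by gene, with lines for the mean of the libraries that had a peak. The downstream Rfc1 site is nearly level between libraries, at 6.46 to 6.88, and 1 Stag1 site is far apart, at 4.28 and 10.0.

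Stag1, a cohesin subunit gene that is much the longest of the 10, held more peaks than any other of them. It spans 361 kb of chromosome 9 (100597709 to 100958544), and its window, 26.4% of the summed windows, held 20 of the 55 TIMELESS peaks. These were 1 peak of replicate 1, 6 of replicate 2 and 13 of replicate 3. They formed 4 shared sites, all in the gene body and none with all 3 libraries. Of the 989 coding genes with a body of 200 kb or more, 75.6% had a shared site in the window, 42.2% had 1 of all 3 libraries and 16.8% had at least 4 shared sites. Their median was 1 shared site.

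The 4 Stag1 sites differed in which libraries met. At 100615186 to 100615628, replicates 1 and 2 had folds of 8.30 and 6.84, a mean of 7.57 ± 1.03 (SD, n = 2), and replicate 3 had no peak although it was the deepest library. In their own libraries 5.04% and 5.10% of peaks were at least as high. This site lay 27.8 kb upstream of the start used for the printed Stag1 window, in a body that spans all transcripts. The other 3 sites held replicates 2 and 3 without replicate 1. The site at 100920978 to 100921715 had a fold of 10.0 and a pileup of 80 in replicate 3, where 0.490% of peaks had at least that fold, but 4.28 and a pileup of 12 in replicate 2. That is a mean of 7.16 ± 4.07 (SD, n = 2). Sites at 100840968 to 100841540 and at 100935727 to 100936413 had mean folds of 4.21 ± 0.977 and 4.29 ± 0.513 (SD, n = 2). The second highest fold in the window, 8.52 with a pileup of 64, was a peak of replicate 3 alone at 100839086 to 100839779. Without replicate 3, 1 of the 4 sites was left, and without replicate 2 none was.

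Smc3, which encodes a core ATPase of cohesin, spans 45.4 kb of chromosome 19 (53600396 to 53645831) and had no shared site in the body. Its shared site lay 18.5 kb upstream at 53581094 to 53581926, outside every annotated gene. Folds there were 3.93 in replicate 2 and 4.25 in replicate 3, a mean of 4.09 ± 0.225 (SD, n = 2), with summits 152 bp apart. Pileups were 12 and 29, and replicate 1 had no peak in the window. In the body, replicate 3 had a peak with a fold of 4.59. At −log10 q of at least 5, without replicate 2 or without replicate 3 the Smc3 site was no longer shared.

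Of the kinase genes of the fork checkpoint, Chek1 had shared sites in its window and Atr had none, a contrast that was not tested. Of coding genes with a body under 25 kb, the class of Chek1, 28.1% had a shared site in the window. Chek1, which encodes CHK1, spans 18.2 kb of the minus strand of chromosome 9 (36708482 to 36726658) and had no peak in its body, but 2 shared sites in its window. The site at 36755620 to 36756845, 29 kb upstream and inside Stt3a, which encodes a catalytic subunit of oligosaccharyltransferase, held all 3 libraries. The fold was 5.20 in replicate 1, 6.22 in replicate 2 and 5.89 in replicate 3, on average 5.77 ± 0.519 (SD, n = 3). With a width of 1226 bp it was the widest of the 10 shared sites, replicate 3 having 2 peaks in it, and the highest summits lay within 64 bp. It ranked 811 of 3476 by its smallest fold. The other site, 35.4 kb downstream at 36672477 to 36673037 in the noncoding gene 1700027I24Rik, had folds of 3.22 in replicate 2 and 2.97 in replicate 3. Its summits were 450 bp apart, the widest gap of the 10 sites. It was no longer shared when summits had to lie within 250 bp, or without replicate 2 or replicate 3, while the Stt3a site was kept in each case.

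Atr, the kinase upstream of CHK1, spans 95.6 kb of chromosome 9 (95857597 to 95953217). Its window held 5 peaks of replicate 3, with folds of 4.39 to 4.97, and 1 of replicate 2, with 5.13, and no 2 of them met. Of those of replicate 3, 3 lay in the gene body. The nearest shared site was 268 kb away, with folds of 4.81 and 4.45 in replicates 1 and 2, while 37.7% of coding genes with a body of 50 to 100 kb had a shared site in the window. Parp1, which encodes a sensor of DNA breaks that adds ADP-ribose chains and is known to bind TIMELESS in human cells, spans 32.1 kb of chromosome 1 (180568891 to 180600999). Its window held a single peak, of replicate 2, 7.75 kb upstream at 180560825 to 180561142, with a fold of 4.79. The nearest shared site was 165 kb away and had a fold of 6.50 in replicate 2 and 5.16 in replicate 3, so it was not shared without replicate 3. The nearest of all 3 libraries was 2310 kb away, the farthest of the 10 genes.

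**Figure D3:**
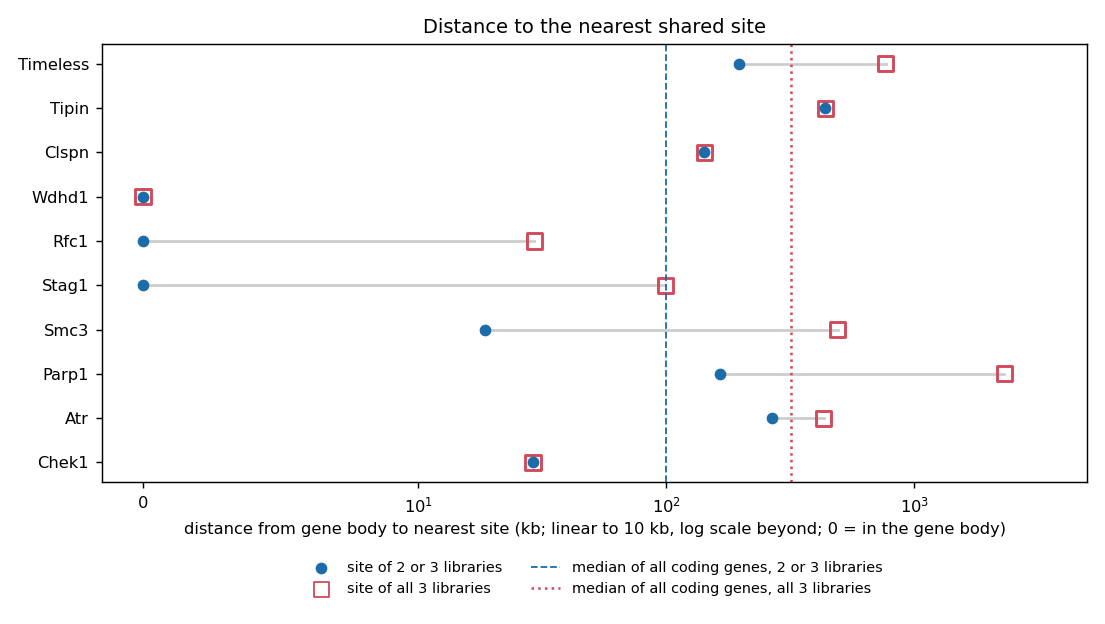
Distance in kb from each gene body to the nearest site of 2 or 3 libraries (filled circles) and of all 3 libraries (open squares), on an axis that is linear to 10 kb and logarithmic beyond, with dashed and dotted lines for the medians of all coding genes. Wdhd1, Rfc1 and Stag1 are at 0 for shared sites, and Timeless, Tipin, Clspn, Parp1 and Atr lie to the right of the dashed median of 99.4 kb.

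The distances to the nearest shared site ran from 0 to 438 kb, with no gene between 29 and 142 kb. Wdhd1, Rfc1 and Stag1 were at 0, Smc3 at 18.5 kb and Chek1 at 29 kb. Next came Clspn at 142 kb, Parp1 at 165 kb, Timeless at 197 kb, Atr at 268 kb and Tipin at 438 kb. The median was 85.5 kb, against 99.4 kb over all coding genes (quartiles 30.7 and 234 kb). To the nearest site of all 3 libraries the median was 287 kb, against 319 kb. With an even number of genes, 85.5 kb is the midpoint between Chek1 and Clspn. Without replicate 3 the median distance to a shared site was 182 kb, against 228 kb over all coding genes, and without replicate 2 it was 135 kb, against 265 kb. These differences were not tested. Just inside the window edge of 50 kb were peaks of replicate 3 at 48.3 kb from Clspn and 49.1 kb from Chek1, with folds of 4.20 and 2.99. Just outside it were a peak of replicate 3 at 55.3 kb from Chek1, with a fold of 3.43, and one of replicate 1 at 55.7 kb from Clspn, with 6.05.

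**Figure D4:**
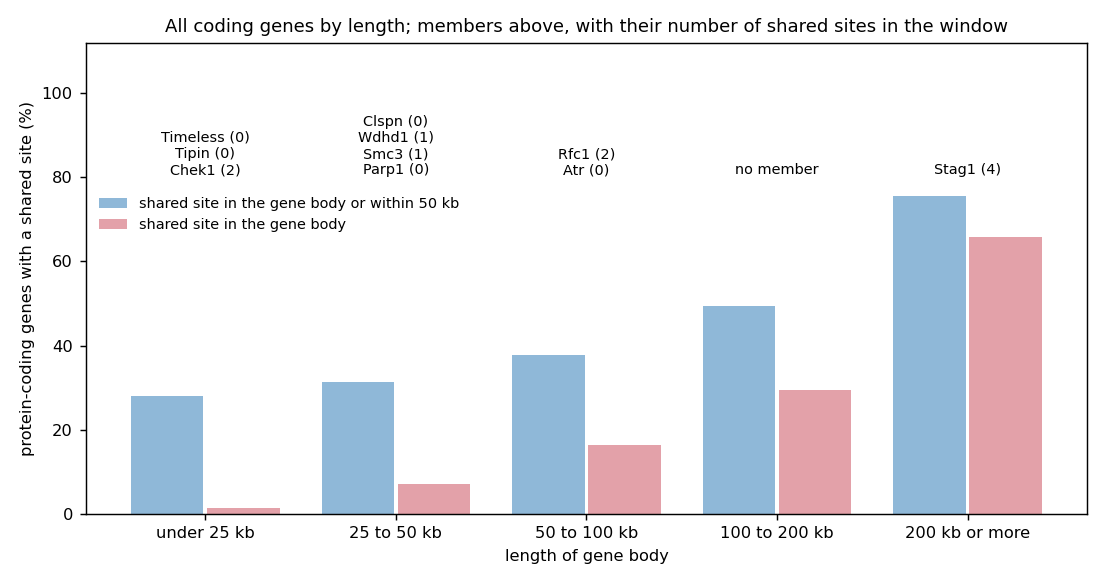
Percent of all coding genes with a shared site in the window (blue bars) or in the gene body (red bars) by length of the gene body, with the members of each length class written above the bars and their number of shared sites in the window in brackets. The share in the window rises from 28.1% under 25 kb to 75.6% at 200 kb or more, where Stag1 lies.

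Other genes of the same pathways had few shared sites in their bodies. Of 69 further genes, 18 had a shared site in the window, or 26.1%, and 1 had it in the body, or 1.45%, against 33.3% and 8.82% of all coding genes. Without replicate 3, 9 of the 69 had a shared site in the window, against 17.5% of all coding genes. By length, 1 of the 40 with a body under 25 kb had a shared site in the body, against 1.36% of all coding genes of that class. Of the 29 longer ones 0 had it, while the share of coding genes was 7.18% for bodies of 25 to 50 kb, 16.3% for 50 to 100 kb, 29.5% for 100 to 200 kb and 65.7% for 200 kb or more, classes that held 17, 6, 3 and 3 of these genes. The gene with a site in the body was Hus1, of the checkpoint clamp, named after its value was seen. That site did not hold all 3 libraries, and whether it was shared without replicate 3 is not given here. No input peak lay in any of these windows. By list, 7 of 14 genes of the helicase and of origin firing had a shared site in the window, as did 6 of 25 of the fork polymerases, clamp and clamp loaders, 2 of 12 of cohesin and its regulators, and 3 of 18 of the ATR-CHK1 checkpoint and repair. These counts were not tested, and they ranged from 16.7% to 50%. The counts by list and those in the body are not given without replicate 3.

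A site of all 3 libraries lay in the windows of 6 of the 69 genes, or 8.70%, against 13.2% of all coding genes, and in each case outside the gene body. Mcm4, a subunit of the replicative helicase, had the highest mean fold, 6.83 ± 0.594 (SD, n = 3), at a site 33.7 kb away inside Prkdc, which encodes the DNA-dependent protein kinase. Atrip, the partner of ATR, had 5.44 ± 0.351 at a site 38.3 kb away inside Pfkfb4. Stag2, the cohesin subunit related to Stag1, had 4.55 ± 0.854 at 27.2 kb. Prim2, a primase subunit, had 4.06 ± 1.45 at 43.5 kb, and Rfc3, a small subunit of the clamp loader, had 4.24 ± 1.23 at 47.9 kb. Esco1, a cohesin acetyltransferase, had 4.95 ± 1.39 at the 50 kb edge of its window.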

How the data were processed

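Peaks were called by the authors, per the file headers, with MACS 2.1.2 for each library alone, with no control, keeping q values up to 0.05, with reads of 101 bp as single-end and at most 1 tag at a position. The build mm10, and Bowtie2 2.4, MACS2 2.1.1, SAMtools 1.14 and deepTools 2.0 as tools, are named in the submitters' processing notes. The deposited pileup is a signal, the fragment coverage at the summit in unscaled units. The deposited fold enrichment is its ratio to the caller's background in the same library. The deposited p-values and q-values are given as −log10. Since no input entered the calling, any place where reads pile up can be a peak.

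The autosomes and chromosomes X and Y were used. Overlapping TIMELESS peaks (at least 1 bp) were merged into sites, a site's fold in a library being that of its highest peak, and sites over input peaks were left out. Distances run from the edge of a site or peak to the edge of the gene body, in the RefSeq table of GRCm38.p6, which gives no exons or introns. All 10 members and all 69 pathway genes matched. Members and lists were chosen with earlier results of these data known. The naming rule took all members, pathway genes with a site of all 3 libraries (at most 8), and coding genes at or nearest to shared sites of the windows. No test was made, for 3 libraries against 1 allow no exact p below 0.25. Strand and gene starts came from the RefSeq promoter table. Merging, counting and distance steps (Python 3.11.15, pandas 2.3.3, NumPy 2.4.6) were tested on simulated data. Sequences under the peaks were not analysed here. The alternatives tried were stricter overlap, q value and fold, smaller windows, input sites kept, and each replicate left out.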

Additional observations from a re-analysis of the deposited data

How the results depend on the processing

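The count of 5 genes with a shared site in the window stayed within 1.5 times under stricter overlap, −log10 q of at least 5 (4 genes), fold of at least 5 (4 genes) and with input sites kept, and the last setting changed none of the results. It was 3 genes for the gene body alone and 3 with 10 kb either side, where genes with a site of all 3 libraries fell from 3 to 1 in both, and shared sites from 10 to 6 in both. Fewer bases were searched there. Shared sites fell from 10 to 5 with −log10 q at 5 or more, and to 4 at fold of at least 5, and the median distance to the nearest shared site rose from 85.5 kb to 164 kb in both, while that of all coding genes rose from 99.4 kb to 226 and 389 kb. The mean number of TIMELESS peaks in the windows fell from 18.3 to 13.0 at −log10 q of at least 5, 5.67 at fold of at least 5, 9.0 for the body alone and 10.0 with 10 kb either side. Pathway genes with a shared site in the window fell from 18 of 69 to 6 at −log10 q of at least 5, 3 at fold of at least 5, 1 for the body alone and 4 with 10 kb either side. The shares of all coding genes above are for the same settings.

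Without 1 replicate at a time, the genes with a shared site in the window numbered 3 to 5. Those with a shared site in the body numbered 1 to 3, and the shared sites 3 to 9. A site of every library used was then the same as a shared site. These settings are thus no check on the count of genes with a site of all 3 libraries. Of all coding genes, 28.4% had a shared site in the window without replicate 1, 15.5% without replicate 2 and 17.5% without replicate 3. The lowest counts of shared sites were 3 without replicate 2 and 4 without replicate 3. The median distance ranged from 85.5 to 182 kb, the pathway genes from 8 to 12, and the mean number of peaks from 11 to 25.5. Timeless, Tipin, Clspn, Parp1 and Atr had no shared site in the window under any alternative tried, and Wdhd1 kept its site under all of them. No alternative counted replicate 3 as an input, the name in its file header. Counted so, every site with a peak of replicate 3 would be left out, the Wdhd1 site among them. Of the shared sites in the windows, only the Stag1 site at 100615186 to 100615628 held no peak of replicate 3. Nearly all the alternatives only take peaks, sites or bases away. Genes without a shared site could thus hardly gain one, and their unchanged counts are no check. No paired analysis was possible because the input is a single library and no test was made. The input peak count was 0 in the main setting, so stricter thresholds or the gene body alone could only leave it at 0. Depth differed 3.61-fold between TIMELESS libraries, which limits what replicate 1 can detect. The cause of the changes was not tested.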
